A study of Mus musculus with 6 samples.

Results

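The 38 genes described here are listed mouse collagen genes, a family taken by name. The list was chosen with earlier results of these data known. DNA methylation at their promoters and gene bodies was read from reduced representation bisulfite sequencing (RRBS), in which the enzyme MspI cuts DNA at CCGG and unmethylated cytosines are converted before sequencing. The 6 libraries, all of strain C57BL/6, comprised 2 wild-type (WT) and 3 double-knockout (DKO) lines of androgenetic haploid embryonic stem cells (AG-haESCs) and 1 sample of round spermatids from testis, which the submitters used as their control. AG-haESCs are ES cells derived from androgenetic blastocysts, so their single chromosome set is of paternal origin. All 5 lines grew on feeder cells with 2i, the inhibitor medium that keeps ES cells undifferentiated. WT 1 was at passage 31 and WT 2 at passage 18, and DKO 1, DKO 2 and DKO 3 were at passages 32, 31 and 29. The titles of the DKO lines name deletions of the H19 DMR and of the IG-DMR, the control elements of the imprinted H19-Igf2 and Dlk1-Meg3 domains. Titles of WT 1 and DKO 2 share the name OG3, and those of WT 2 and DKO 3 share AGH-2. The labels do not say that the lines came from separate embryos, so p-values measure the spread between these lines only.

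A position was used where all 6 libraries had at least 10 reads. The promoter was taken from 1 kb before to 0.5 kb after the gene start, and the body as the rest of the gene. A level is the percentage of methylated among all reads, summed over the positions of a part, and a part counted as measured with at least 3 positions. Of the 38 genes, 13 had a measured promoter, 28 a measured body, 10 both and 31 either. The 7 genes with neither were Col1a2, Col3a1, Col5a2, Col10a1, Col11a1, Col20a1 and Col24a1, so the partner chain of type I collagen and the type III gene were not seen.

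The libraries held between 197728785 and 293920118 reads summed over cytosines, with a median of 364 to 503 reads at the 233019 positions common to all 6. The mean level over these common positions was 4.13% to 8.09% in the lines and 22.45% in the round spermatids, and every collagen value below stands on that background. In the window from 2 to 4 kb before the start of H19, WT 1 had 22 reads and WT 2 had 23, the 3 DKO lines had none and the round spermatids had none either. In the window from 16 to 10 kb before Meg3, WT 1 had 196 reads and DKO 3 had 62, while WT 2, DKO 1 and DKO 2 had none. The DKO 3 reads go against absence of that whole window from the library labelled DKO 3, and whether they lie in the deleted element was not checked. Of the marker genes listed for ES cells, round spermatids, fibroblasts and testis somatic cells, few had a measured promoter (1, 1, 2 and 0), so the labelled cell types could not be checked from them. The Tnp1 promoter, of a spermatid nuclear protein, averaged 12.1% ± 10.1 (SD, n = 5) over the lines and was at 0% in round spermatids. The other measured marker promoters were Utf1 of ES cells, at 7.13% in round spermatids against 0.0375% in the lines, and the fibroblast genes Twist2 and Prrx1, at 10.9% and 1.56% in the lines and 0% and 0.0531% in round spermatids. Of the 5 measured marker bodies (Sox2, Utf1, Twist2, Prrx1 and Pdgfra), Twist2 was at 54.3% in round spermatids and 6.22% in the lines, and the others were under 2% in both. Other cells in a sample and methylation of the named cells cannot be told apart in these bulk libraries.

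Collagens are the main structural proteins of the extracellular matrix, and their chains wind together into trimers. Fibrillar collagens (types I, II, III, V, XI, XXIV and XXVII) assemble into or regulate banded fibrils, the network-forming type IV collagens build basement membranes, and the others include beaded filaments, fibril-associated, anchoring and transmembrane collagens. Methylation of CpG sites is usually low at CpG-rich promoters and high along the bodies of genes in male germ cells, while ES cells grown in 2i are known for low methylation genome-wide.

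Measured collagen promoters were richer in CpG sites than unmeasured ones. RefSeq promoter windows (GRCm38.p6, 250 bases before to 50 after a listed start) were found for 29 of the 38 genes. The MspI site CCGG, searched as those letters, which read the same on both strands, was present in 10 of the 10 windows of genes with a measured promoter and in 9 of the 19 others (47.4%). Among all 17274 protein-coding windows 62.5% held it, and among those of the 6293 genes with a measured promoter 90.6% did. The median number of CpG sites was 23.5 in the measured and 9 in the unmeasured collagen windows, and 23 in the measured windows of all genes. The measured collagen promoters were thus close to measured promoters in general. The following 4 sequences, the 250 bases before the start on the gene's strand, show this range from none to many measured sites. CpG sites measured in all 6 libraries are in capitals.

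Col3a1 (chr1:45311288-45311537, + strand): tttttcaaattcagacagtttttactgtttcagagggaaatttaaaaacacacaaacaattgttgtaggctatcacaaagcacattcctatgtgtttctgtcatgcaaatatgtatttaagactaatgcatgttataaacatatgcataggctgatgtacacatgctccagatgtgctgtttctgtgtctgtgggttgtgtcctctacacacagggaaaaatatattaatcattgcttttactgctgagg

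Col9a2 (chr4:121039316-121039565, + strand): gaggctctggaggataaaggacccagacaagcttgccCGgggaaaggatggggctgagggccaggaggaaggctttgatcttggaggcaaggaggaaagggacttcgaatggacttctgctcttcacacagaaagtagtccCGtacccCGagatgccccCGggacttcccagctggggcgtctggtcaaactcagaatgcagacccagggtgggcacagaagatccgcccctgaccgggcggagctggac

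Col16a1 (chr4:130047590-130047839, + strand): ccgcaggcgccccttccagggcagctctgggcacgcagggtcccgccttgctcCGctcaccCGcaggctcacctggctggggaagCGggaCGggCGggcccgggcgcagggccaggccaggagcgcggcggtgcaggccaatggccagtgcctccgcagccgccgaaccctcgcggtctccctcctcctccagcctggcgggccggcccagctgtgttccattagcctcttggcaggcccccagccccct

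Col18a1 (chr10:77166531-77166780, - strand): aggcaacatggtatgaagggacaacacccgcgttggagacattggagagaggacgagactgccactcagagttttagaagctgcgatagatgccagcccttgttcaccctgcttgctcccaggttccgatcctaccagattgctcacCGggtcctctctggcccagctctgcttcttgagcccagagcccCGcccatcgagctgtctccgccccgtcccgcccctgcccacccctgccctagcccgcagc

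The Col3a1 stretch holds 0 CpG sites, so RRBS could not report on it. The Col9a2 stretch holds 9 CpG sites, of which 4 were measured, Col16a1 holds 21 with 5 measured, and Col18a1 holds 12 with 2 measured.

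Collagen promoters were nearly free of methylation in round spermatids and low in the ES cell lines. Over the 13 measured promoters, the median level was 0.0165% in round spermatids and the median of the line means was 0.0967%. Round spermatids were called higher or lower where they lay at least 25 percentage points from the mean of the 5 lines and outside the range of all 5. This is a rule of size without a test, because the round spermatids are 1 library. By it 1 of 13 promoters was higher, against 1.03% of the 6296 promoters measured over all genes, and 0 were lower, against 0.0318%. Against each line alone, it was at least 25 points higher in 1 promoter for WT 1, WT 2, DKO 1 and DKO 3 and in 0 for DKO 2, where 0.969%, 1.08%, 1.05%, 0.985% and 1.02% of all promoters were. The median difference between round spermatids and the mean of the lines was -0.032 percentage points (SD 0.0384 of the medians against each of the 5 lines) in collagens and -0.007 over all genes. Intervals given with levels are 95% Wilson intervals. They cover counting error only and are too narrow, since a read can cover several positions and PCR copies were not marked.

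The 4 type IV promoters form 2 head-to-head pairs, each a shared stretch from which neighbouring genes start in opposite directions, so the 4 genes give 2 independent regions. The Col4a1 and Col4a2 stretch (14 positions, chr8:11312728-11312903) was at 0.104% in WT 1, 0% in WT 2 and DKO 1, 0.0344% in DKO 2 and 0.0216% in DKO 3, and at 0% in round spermatids. It was unmethylated throughout, with an upper bound of 0.0557% in round spermatids. The Col4a3 and Col4a4 stretch (12 positions, chr1:82586587-82587267) stood at 10.4% in WT 1 and 13.3% in DKO 2, but at 0% in WT 2, 0.0346% in DKO 1 and 0.127% in DKO 3. Round spermatids had 0.0165%. The 2 lines with the higher values are the ones that share the name OG3 in their titles and differ in their deletions, and WT and DKO values overlapped. These 2 lines were also the highest over the common positions, at 8.09% and 7.24%. Over all 6296 promoters, deviations of lines sharing a name had a correlation of 0.0006 (2 pairs). A correlation over all promoters cannot decide for a single stretch, so a link to the name was not tested here.

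Both measured fibrillar promoters were low. Col5a1, a chain of type V collagen, which regulates fibril diameter, had 17 promoter positions at 0.0184% to 0.0587% in the lines and 0.0971% in round spermatids. Col27a1, a fibrillar chain of cartilage, was at 0%, 0.334%, 0.0664%, 0.0831% and 0% in WT 1, WT 2, DKO 1, DKO 2 and DKO 3 and at 1.76% in round spermatids (interval 0.961% to 3.22%). Round spermatids were above every line in both, by 0.0596 and 1.67 percentage points over the line mean. Reads at the Col27a1 positions ran from 64 to 1505 per library, so levels in the shallowest library are loosely bounded. With at least 20 reads a position the Col27a1 promoter was not measured. Around the listed start of Col27a1, 1.40 kb further in, the difference was 0.0074. Including Col25a1, 3 of 13 collagen promoters had round spermatids above every line, against 14.5% of all promoters, and 0 of 13 had them below every line, against 7.47%.

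Among the other collagens, Col25a1, a transmembrane collagen of neurons, was the promoter called higher. Its 3 positions (chr3:130179649-130179676, at -709 to -682 bases from the gene start) were at 11.6% and 13.9% in WT 1 and 2, at 8.89%, 24.9% and 1.85% in DKO 1, 2 and 3, and at 42.6% in round spermatids. Round spermatids lay above all lines, 30.4 percentage points above their mean of 12.2% ± 8.42 (SD, n = 5). The gene's listed RefSeq start lies 0.487 kb further in, and 3 positions beside it (125 to 140 bases after that start) were at 0% in round spermatids and at a mean of 0.075% in the lines. The call thus held for the upstream flank and not for the sequence at the listed start.

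Single lines carried methylation at other promoters where round spermatids had next to none. Col9a2, a fibril-associated chain of cartilage, was at 0.501% in WT 1, 4.94% in WT 2, 0% in DKO 1, 0.0912% in DKO 2, 16.5% in DKO 3 and 0.422% in round spermatids. DKO 3 was the highest and WT 2 next, the 2 lines that share the name AGH-2. As means of position levels DKO 3 was at 5.65%, WT 2 at 1.40% and round spermatids at 0.759%. Col26a1 was at 9.45% in DKO 1 and 2.02% in DKO 2, at 0.677% in WT 1, and at 0% in WT 2, DKO 3 and round spermatids. Col16a1, whose 5 measured sites are in capitals above, was at 1.41% in WT 1 and 5.26% in DKO 2, and at 0% in the other lines and in round spermatids. The promoters of Col9a3, Col18a1 and Col23a1 were at most at 0.117% in every library.

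Col9a1 and Col11a2 had only 2 promoter positions each and were not counted. The Col9a1 positions, at -936 and -911 bases from its listed start, were at 54.2%, 10.1%, 50.3%, 41.3% and 40.2% in WT 1, WT 2, DKO 1, DKO 2 and DKO 3 and at 0% in round spermatids (upper bound 0.858%). All 5 lines lay above round spermatids there. The Col11a2 positions were at 0% to 0.104% in the lines and 19.4% in round spermatids.

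**Figure D1:**
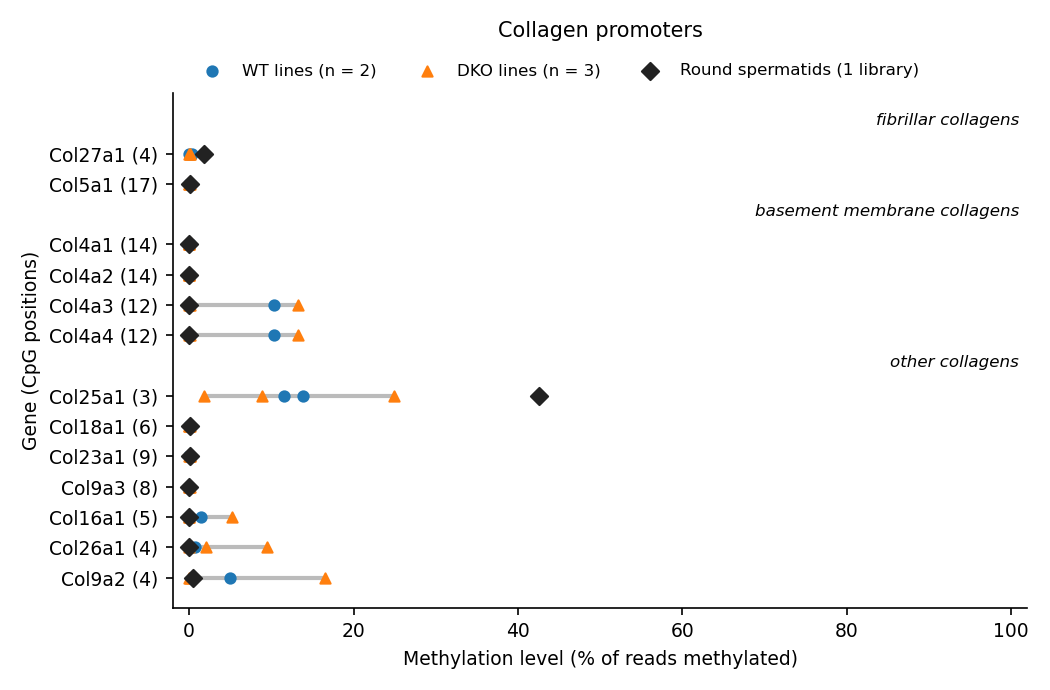
Methylation level of the 13 measured collagen promoters (x axis, % of reads methylated), with the number of CpG positions after each gene name. Circles are WT lines, triangles DKO lines, diamonds the round spermatid library, and grey bars the range of the 5 lines. Nearly all points sit at the left edge, and Col25a1 (42.6% in round spermatids) stands apart.

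Part of the collagen gene bodies, among them Col1a1, Col2a1, Col4a1 and Col4a2, were far more methylated in round spermatids than in the lines. Of 28 measured bodies, 14 were called higher, against 33.7% of the 6450 bodies measured over all genes, and 0 were lower, against 0.202%. The median difference was 23.6 percentage points (SD 4.49 of the medians against each line) in collagens and 2.85 over all genes. Round spermatids lay above every line in 19 of 28 bodies, against 51.7% of all bodies, below every line in 3, against 5.61%, and inside the range of the lines in 6. Against single lines, round spermatids were at least 25 points higher in 13 bodies for WT 1 and DKO 2, 14 for DKO 1, and 15 for WT 2 and DKO 3, where 31.8%, 32.7%, 34.3%, 35.3% and 34.4% of all bodies were higher than WT 1, DKO 2, DKO 1, WT 2 and DKO 3. These 5 counts share the round spermatid library and are not independent of each other.

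**Figure D2:**
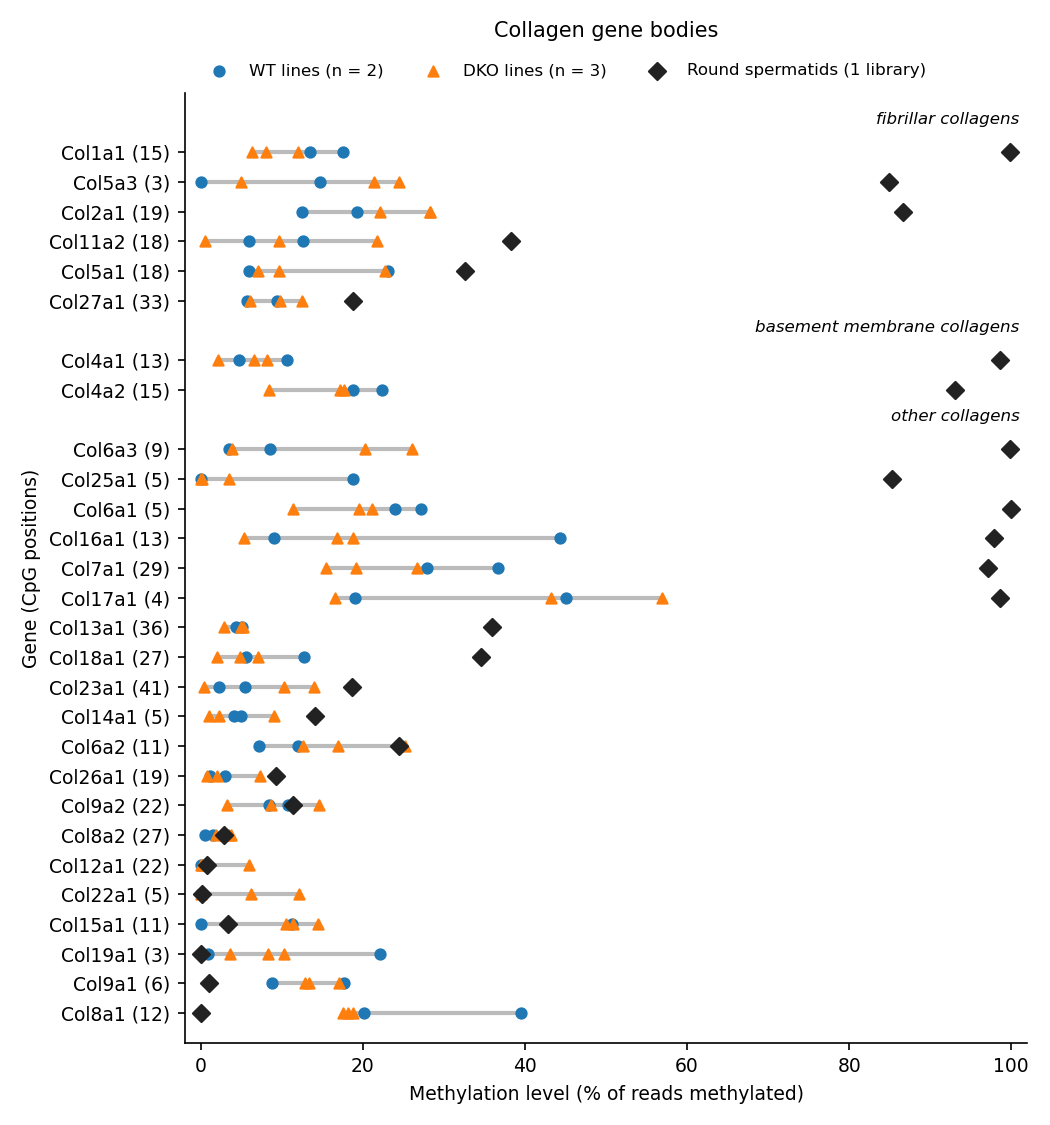
Methylation level of the 28 measured collagen gene bodies (x axis, % of reads methylated), grouped by family and ordered by the difference between round spermatids and the mean of the lines. Circles are WT lines, triangles DKO lines, diamonds the round spermatid library, and grey bars the range of the 5 lines. In 14 genes the diamond lies at least 25 points to the right of the line mean, and in Col8a1, Col9a1 and Col19a1 it lies to the left of all lines.

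Of the fibrillar collagens, 4 of 6 measured bodies were higher, against 33.7% of all bodies. The median difference was 46.4 percentage points, against 2.85 over all genes. Col1a1, the main chain of type I collagen in bone, skin and tendon, had 15 body positions at 17.6% in WT 1, 13.5% in WT 2, 6.34% in DKO 1, 12.02% in DKO 2, 8.08% in DKO 3 and 99.9% in round spermatids. Round spermatids were nearly fully methylated and all lines were below 18%. The difference from the line mean of 11.5% ± 4.45 (SD, n = 5) was 88.4 percentage points.

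Col2a1, the type II collagen of cartilage, was at 19.3% and 12.5% in WT 1 and 2, at 22.1%, 28.3% and 28.3% in DKO 1, 2 and 3, and at 86.7% in round spermatids. Its line mean of 22.1% ± 6.67 (SD, n = 5) was above that of Col1a1, and every DKO line was above both WT lines. Col5a3, a chain of type V collagen, had 3 positions at 14.7%, 0.0426%, 24.4%, 21.4% and 4.97% in WT 1, WT 2, DKO 1, DKO 2 and DKO 3 and at 85.0% in round spermatids. Round spermatids were again above all lines, and the lines were spread widely (13.1% ± 10.4, SD, n = 5).

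The other fibrillar bodies had intermediate levels in round spermatids. Col11a2, a type XI chain of cartilage, was at 12.6%, 5.90%, 0.456%, 21.7% and 9.59% in WT 1, WT 2, DKO 1, DKO 2 and DKO 3 and at 38.3% in round spermatids. Col5a1 was at 23.1%, 5.93%, 22.8%, 9.62% and 7.05% in the same order and at 32.6% in round spermatids. Col27a1 was at 9.40%, 5.67%, 9.71%, 12.5% and 6.07% in that order and at 18.8% in round spermatids. Col5a1 and Col27a1 were above every line but within 25 points of the mean, so they were not called. As means of position levels, in which each site counts the same whatever its depth, the differences of Col11a2, Col5a1 and Col27a1 were 59.8, 48.2 and 40.8 points, against 28.3, 18.9 and 10.1 from summed reads.

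Both measured basement membrane bodies were called higher, with a median difference of 84.2 percentage points. Their sites all lay more than 3 kb after the start. With bodies taken from 3 kb, 57.9% over all genes were higher, with a median difference of 47.7 points. Col4a1, with Col4a2 the ubiquitous pair of type IV chains, was at 10.6% in WT 1, 4.71% in WT 2, 8.15% in DKO 1, 6.59% in DKO 2, 2.13% in DKO 3 and 98.6% in round spermatids. Its difference of 92.2 points was the largest of the 28 bodies. Col4a2 was at 22.3%, 18.8%, 8.40%, 17.7% and 17.1% in WT 1, WT 2, DKO 1, DKO 2 and DKO 3 and at 93.1% in round spermatids. In round spermatids the unmethylated shared promoter of this pair thus lay between bodies with high summed levels, while in the lines both summed levels were low. The nearest measured body sites were 3.82 kb from the start in Col4a1 and 31.1 kb in Col4a2. Not every site differed, since 2 Col4a2 positions (chr8:11407472-11407490) averaged 62.9% in the lines and 70.8% in round spermatids. Col4a3 and Col4a4, chains of the kidney glomerulus, had 2 body positions each and were not counted, and all were at 100% in round spermatids. The lines were at 0% to 23.5% in Col4a3 and at 0.156% to 57.3% in Col4a4. At 1 Col4a3 position, where the shallowest library had 12 reads, DKO 2 was also at 100%.

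Among the other collagens, 8 of 20 measured bodies (40.0%) were higher, near the 33.7% of all bodies, and the median difference was 9.74 percentage points. Col6a3 and Col6a1 are chains of type VI collagen, the beaded filaments around cells. Col6a3 was at 3.41% and 8.50% in WT 1 and 2, at 26.0%, 3.79% and 20.3% in DKO 1, 2 and 3, and at 99.9% in round spermatids. Col6a1 was at 27.1% and 23.9% in the WT lines, at 19.5%, 21.1% and 11.4% in the DKO lines, and at 100% in round spermatids (interval 99.5% to 100%). The third type VI chain measured, Col6a2, was at 7.16% to 25.1% in the lines and 24.4% in round spermatids, inside the range of the lines. Its difference was 9.65 points from summed reads and 28.4 as a mean of position levels.

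Col25a1 was at 18.8%, 0.039%, 0%, 3.51% and 0.0893% in WT 1, WT 2, DKO 1, DKO 2 and DKO 3 and at 85.3% in round spermatids, from 5 positions. WT 1 stood above the other lines, and round spermatids above all. Its difference of 80.8 points was 49.4 with at least 20 reads a position and 36.1 as a mean of position levels. Only 2 of the 5 positions, single sites 124 and 416 kb after the start, were at 90% or more in round spermatids. The other 3, those beside the listed start, were at 0%. Col16a1, a fibril-associated collagen, was at 44.3%, 9.04%, 5.30%, 16.8% and 18.7% in the same order and at 97.8% in round spermatids. Here too WT 1 was the highest line. Col7a1, the anchoring fibril collagen of skin, had 29 positions at 36.7%, 27.9%, 15.4%, 26.6% and 19.2% in that order and 97.1% in round spermatids.

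The remaining called bodies were Col17a1, Col13a1 and Col18a1. Col17a1, the hemidesmosome collagen, had the highest mean over the lines of the 28 bodies, 36.1% ± 17.6 (SD, n = 5), with a range of 16.6% to 56.9% and 98.7% in round spermatids. Col13a1 and Col18a1, a transmembrane collagen and the precursor of endostatin, were at 36.0% and 34.6% in round spermatids with line means of 4.49% ± 0.942 and 6.40% ± 3.97 (SD, n = 5). Col23a1, Col14a1 and Col26a1 were above every line without reaching the gap, at 18.7%, 14.1% and 9.25% in round spermatids.

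Round spermatids lay below every line in 3 of the other collagens, none of which reached the gap. Col8a1, a network-forming collagen of vessels and cornea, had 12 positions in 2 clusters near its 3′ end, reaching to 2.76 and 4.08 kb from the end of the gene. They were at 39.4% in WT 1, 20.1% in WT 2, 17.5% in DKO 1, 18.8% in DKO 2, 18.1% in DKO 3 and 0.0567% in round spermatids. All lines were methylated there and the round spermatids were not, a difference of -22.7 percentage points. Col9a1, a fibril-associated chain of cartilage, was at 8.78% to 17.6% in the lines and 1.03% in round spermatids, from 6 positions. Col19a1 was at 0.858% to 22.1% in the lines and 0% in round spermatids (upper bound 0.904%), from 3 positions. Of the 6 Col9a1 positions 5 were at 10% or less and 1 at 90% or more in round spermatids, and as a mean of single-position levels its difference changed sign, from -12.9 to 2.24 percentage points. The remaining bodies, Col8a2, Col9a2, Col12a1, Col15a1 and Col22a1, lay with Col6a2 inside the range of the lines. Their round spermatid levels were 2.81%, 11.4%, 0.704%, 3.31% and 0.129%.

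Single positions showed that the intermediate body levels were mixtures of fully methylated and unmethylated sites. Of the 451 body positions in collagens, 234 (51.9%) were at 90% or more in round spermatids, 195 (43.2%) at 10% or less, and 22 in between. Over all gene bodies 26.7% of 85378 positions were at 90% or more and 67.8% at 10% or less. By family, 73 of 107 fibrillar positions, 29 of 32 type IV positions and 132 of 312 others were at 90% or more, and 0 type IV positions were at 10% or less. All type IV body positions lay 3.82 kb or more after the start, while the other families also had positions within 3 kb. These family shares, and the family medians above, thus compare sites at unlike distances from the start.

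Sites close to the start were almost all unmethylated in round spermatids, while sites further in were of both kinds. Of 115 body positions within 3 kb of the start, 113 were at 10% or less and 1 at 90% or more in round spermatids. Of 336 positions further in, 233 (69.3%) were at 90% or more and 82 (24.4%) at 10% or less. Over all gene bodies, 44.1% of 48921 positions over 3 kb after every start were at 90% or more, and 3.33% of 36457 nearer ones. At 10% or less were 47.8% of the further and 94.6% of the nearer positions, so low sites near the start were general. This split was chosen after the positions had been seen.

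**Figure D3:**
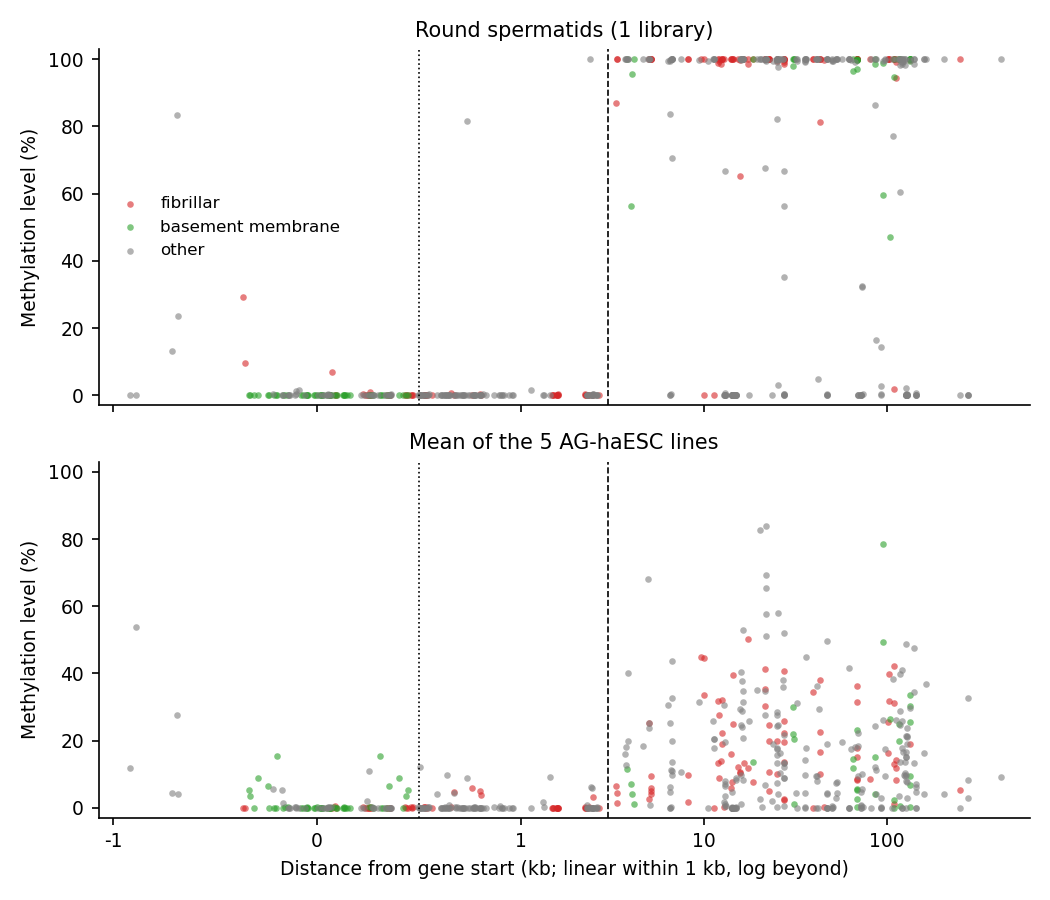
Methylation level of each measured collagen position (y axis, %) against its distance from the gene start (x axis, kb, linear within 1 kb and logarithmic beyond), in round spermatids (top) and as the mean of the 5 lines (bottom), coloured by family. The dotted line marks the end of the promoter at 0.5 kb and the dashed line 3 kb. Of the body positions within 3 kb, 113 of 115 lie at 10% or less in round spermatids, and 233 of 336 beyond it lie at 90% or more.

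With bodies taken from 3 kb after the start, 17 of 26 measured collagen bodies (65.4%) were higher, against 57.9% of 4209 bodies over all genes, and 0 were lower, against 0.166%. The 6 measured fibrillar bodies were then all called, the 2 type IV bodies too, and 9 of 18 others. Col5a1 rose from 32.6% to 98.5% in round spermatids under this definition, Col27a1 from 18.8% to 97.7%, Col11a2 from 38.3% to 99.3%, Col13a1 from 36.0% to 98.5% and Col18a1 from 34.6% to 99.5%. In the lines the same bodies averaged 8.24% to 20.05%. The median difference was 71.9 points in collagens and 47.7 over all genes. The collagens' count of called bodies was thus nearer to that of all genes once the first 3 kb were left out.

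The lines were not without methylation where round spermatids had it. At the 234 positions at 90% or more in round spermatids, the mean level was 23.7% in WT 1, 13.4% in WT 2, 15.9% in DKO 1, 24.2% in DKO 2 and 16.6% in DKO 3, a mean over lines of 18.7% ± 4.89 (SD, n = 5). Over all gene bodies the same mean was 19.5%. Of these 234 positions, 35 (15.0%) were under 10% in every line and 3 at 50% or more in every line. Among the 22811 such positions of all gene bodies, all 5 lines stayed below 10% at 13.4% of them. At 69 of the 22811 all 5 lines reached 50%. The collagen share under 10% was thus near that of all genes. WT 1 and DKO 2 were the highest lines, WT 2, DKO 1 and DKO 3 the lowest. In the 28 bodies, WT 1 was the highest line in 12 and DKO 2 in 11, while DKO 1 was the lowest in 10, WT 2 in 9 and DKO 3 in 7. Over the common positions of the genome WT 1 and DKO 2 were also the highest lines, at 8.09% and 7.24%, and WT 2 was the lowest, at 4.13%.

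Positions under 500 bp apart were joined into 152 clusters, of which 71 in 30 genes held at least 3 positions, counting shared promoters for each gene. In round spermatids 32 of these were at 90% or more, 33 at 10% or less and 6 in between. Of the 33 low clusters, 23 began within 3 kb of the start, and none of the 32 high ones did. Clusters were not formed over all genes, so no such share stands beside these counts. Low sites near the start were general, at 94.6% of single body positions within 3 kb over all genes. The clusters below were chosen after their values were seen. In Col1a1, 6 positions at chr11:94941245-94941398, 5.02 kb after the start, were at 100% in round spermatids and at 1.81% to 15.7% in the lines. In Col13a1, 4 positions at chr10:61928808-61928955, 50.3 kb after the start and inside the overlapping gene Gm30121, were at 99.8% in round spermatids and at 0% to 0.941% in the lines. In Col18a1, 4 positions at chr10:77113521-77113698 lay 7 to 184 bases after the second listed start of the gene, 52.8 kb from the first. In round spermatids they were at 100%, while the lines had 6.85% ± 3.11 (SD, n = 5), whereas the 6 positions at the first start averaged 0.0369% in the lines and 0.057% in round spermatids. The 2 listed starts of Col18a1 were therefore in opposite states in round spermatids, fully methylated at the inner one and unmethylated at the outer one.

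**Figure D4:**
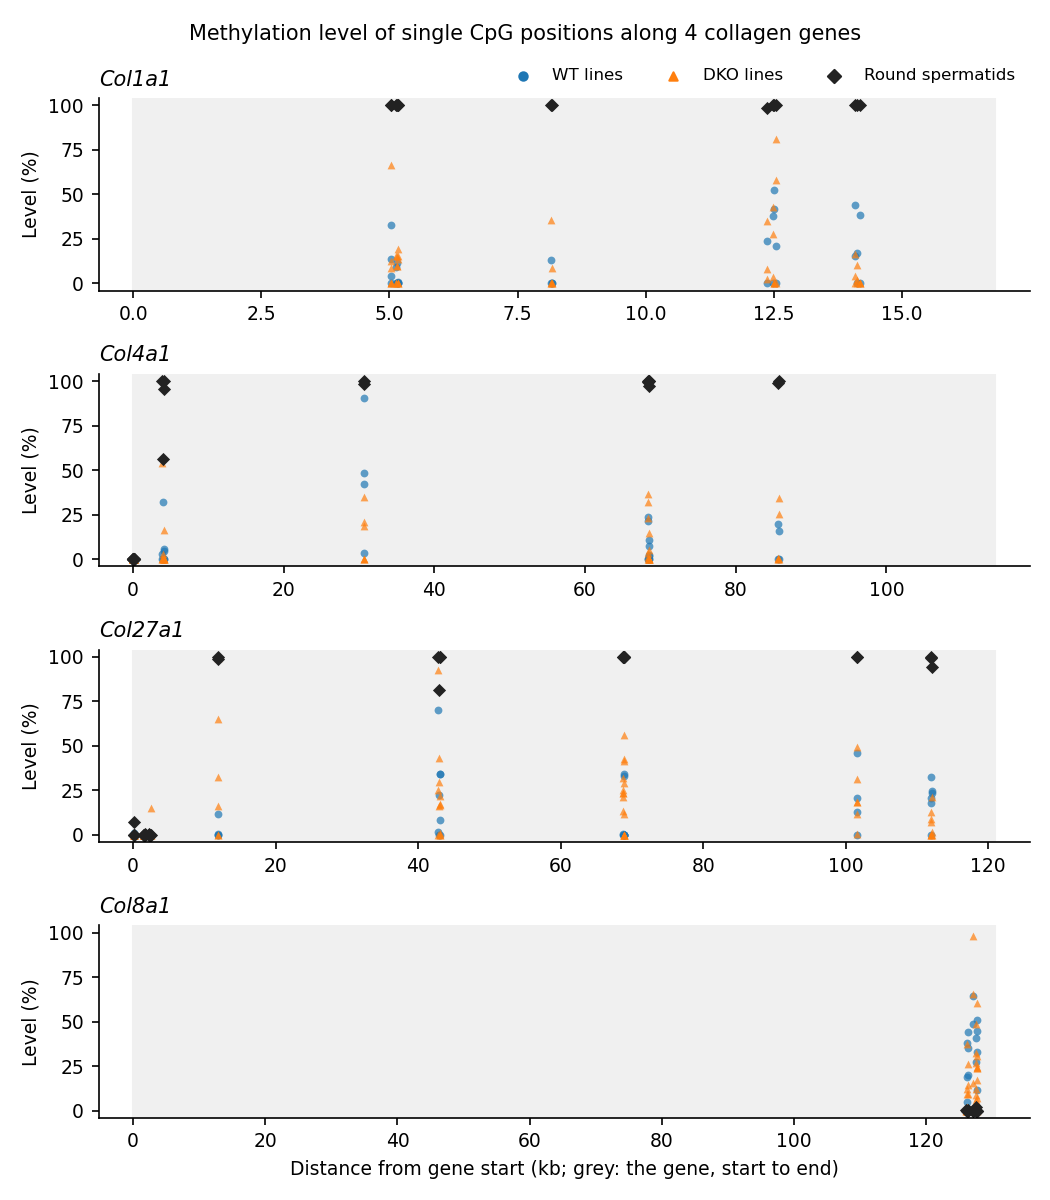
Level of single measured positions (y axis, %) against distance from the gene start (x axis, kb) in Col1a1, Col4a1, Col27a1 and Col8a1. Circles are WT lines, triangles DKO lines, diamonds round spermatids, and the grey area spans the gene. The diamonds are near 100% along Col1a1. In Col4a1 and Col27a1 they are near 0% close to the start and mostly near 100% further on. They are near 0% in the stretch of Col8a1 where the lines range widely.

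Collagen genes also host microRNAs. Mir711 lies within Col7a1 on the same strand, and a cluster of 11 positions around it (chr9:108969542-108970013) was at 99.96% in round spermatids and at 26.8%, 23.3%, 16.4%, 24.9% and 30.05% in WT 1, WT 2, DKO 1, DKO 2 and DKO 3. The hairpin is shown because 1 of the measured CpG sites, in capitals, lies inside it, in the stretch of the mature microRNA.

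Mir711 hairpin (RefSeq, chr9:108969922-108970003, + strand): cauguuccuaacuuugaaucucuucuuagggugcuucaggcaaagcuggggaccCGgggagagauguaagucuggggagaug

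Mir455, a microRNA of cartilage, lies within Col27a1, and the 4 positions around it were at 92.0% in round spermatids and 2.07% to 34.1% in the lines.

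The design also sets the DKO lines, which lack imprinting control elements by their titles, against the WT lines. No collagen promoter or body differed by the quasi-likelihood test of edgeR on methylated and unmethylated counts, with Benjamini-Hochberg adjustment over all genes. The count was 0 of 13 promoters and 0 of 28 bodies, and 0.0% of the 5966 promoters and 0.0% of the 6335 bodies tested over all genes. At an unadjusted p under 0.05 there were 0 promoters and 1 body, against 2.6% of promoters and 2.45% of bodies over all genes. limma called 0 and 0 as well.

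The body at the unadjusted threshold was Col22a1, a collagen of tissue junctions, with 5 positions at 0% in WT 1 and WT 2, at 6.17%, 12.1% and 0% in DKO 1, 2 and 3, and at 0.129% in round spermatids. DKO 3 had the WT value, so the groups overlapped. Its edgeR quasi-likelihood p was 0.0234 and the adjusted p 0.999, while the likelihood ratio test of edgeR, which does not carry the uncertainty of the dispersion, gave an adjusted p of 0.0448. That test called 0.347% of the bodies and 0.352% of the promoters over all genes, and 0 collagen promoters.

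Every DKO line was above both WT lines in 3 of 28 bodies (Col2a1, Col6a2 and Col8a2), against 9.43% of all bodies, and below both in 5 (Col1a1, Col4a2, Col6a1, Col7a1 and Col8a1), against 6.17%. No collagen promoter separated the groups either way, against 12.8% and 3.92% of all promoters. Among these 8 bodies without overlap, the largest differences were those of Col7a1, 20.4% ± 5.69 in DKO (SD, n = 3) and 32.3% ± 6.18 in WT (SD, n = 2), a difference of -11.9 percentage points, and of Col8a1, 18.1% ± 0.666 and 29.8% ± 13.7, a difference of -11.6. In the other direction Col2a1 was at 26.2% ± 3.61 in DKO and 15.9% ± 4.80 in WT, a difference of 10.4, and Col6a2 at 18.2% ± 6.37 and 9.54% ± 3.36, a difference of 8.66. The edgeR adjusted p was 0.999 for each of these 4 bodies. Larger differences of group means occurred with overlapping lines, at -13.1 points in Col16a1 (13.6% in DKO, 26.7% in WT) and 10.7 in Col6a3 (16.7% and 5.95%). With 2 against 3 lines there are 10 ways to split them, and an exact permutation test cannot give a p under 0.1. The median size of the difference was 5.29 points in collagen bodies and 1.57 over all bodies, and its signed median was 0.418 and 0.0127. Collagen bodies also stood higher in the lines, with median line means of 9.78% and 4.50%. With bodies from 3 kb after the start the median sizes were 6.13 and 3.62 points.

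**Figure D5:**
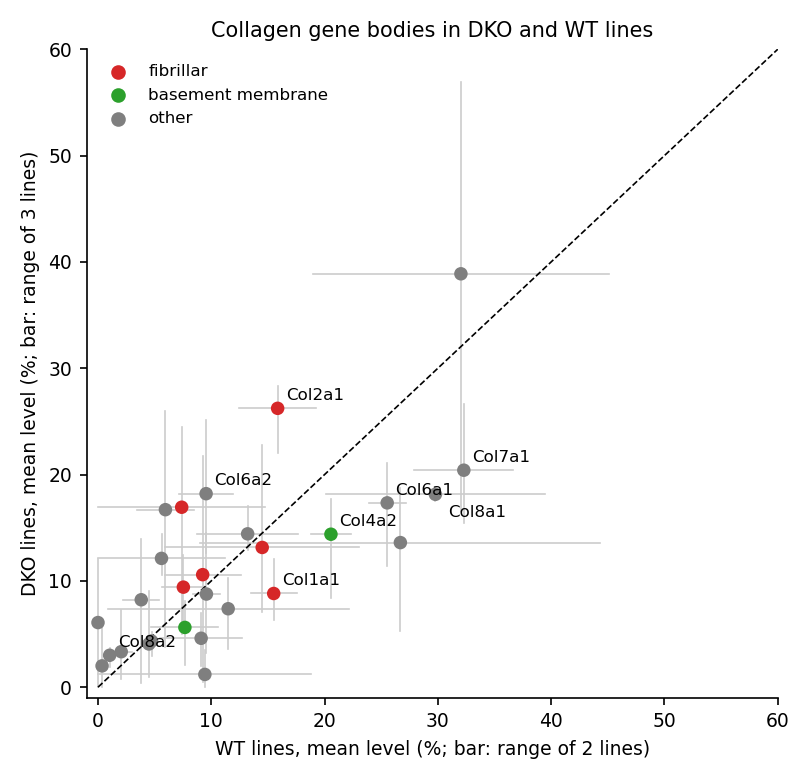
Mean level of each measured collagen body in the 3 DKO lines (y axis, %) against the 2 WT lines (x axis, %), with bars for the range of the lines and colours for the family. The dashed line marks equal levels, and the 8 named genes are those whose groups do not overlap. Points lie on both sides of the line, from Col2a1 (26.2% against 15.9%) above it to Col7a1 (20.4% against 32.3%) below it.

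Genes that act on collagen were taken as a list of 49, covering chain modification, folding, processing, crosslinking, breakdown and receptors. None of their 14 measured promoters was called in round spermatids against the lines, where 1.03% of all promoters were higher and 0.0318% lower. Of 21 measured bodies, 8 were higher and 0 lower (33.7% and 0.202% over all genes), with a median difference of 1.90 percentage points. The receptors Itga10, Itga2 and Itga11, integrin chains that bind collagen, reached 91.6%, 75.7% and 76.9% in round spermatids, where the lines had 13.8% ± 10.7, 13.6% ± 14.6 and 18.2% ± 6.57 (SD, n = 5). The other measured receptor bodies, Itga1, Itgb1 and Ddr1, were at 2.64%, 0.0483% and 2.89% in round spermatids and were not called. The lysyl hydroxylases Plod1 and Plod3, which modify lysines of new chains, were at 73.3% and 73.9% and at 4.46% ± 4.48 and 8.67% ± 7.25 in the lines. The proteases Adamts14 and Tll2, of families that trim procollagen, were at 88.9% and 32.4% with line means of 13.2% ± 18.9 and 4.88% ± 2.46. Sparc, a collagen-binding matrix protein, was at 92.1% against 15.9% ± 6.76. The differences of the 13 bodies not called ran from -10.9 points in Loxl4, a crosslinking enzyme, and -9.10 in Adamts2, a procollagen protease, to 3.29 in P3h1.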

How the data were processed

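RRBS libraries of 2 WT lines, 3 DKO lines and 1 round spermatid sample were used. Per the labels' protocols, DNA was cut with MspI, ligated to methylated adapters, size-selected on agarose, bisulfite-converted and PCR-amplified. Bismark 0.12.2 and mm10 are named in the submitters' processing notes. Not given in the sources used here are trimming, duplicate removal and strand handling. The deposited files give, for each position, a count of methylated and a count of unmethylated reads by the authors. The deposited fraction equals their ratio at every position (0 mismatches at a tolerance of 1e-09).

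All 34003 common positions inside RefSeq promoter windows were bases of a CpG (100%). Both strands of a CpG occur as separate positions, with 879 adjacent pairs.

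Gene coordinates came from the RefSeq table of GRCm38.p6, the assembly of mm10. Strand came from the promoter table for 29 collagens and from general knowledge for 9. The 17283 protein-coding genes with a strand served as background. Exons and UTRs were not assigned.

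Levels were summed reads over positions with at least 10 reads in all 6 libraries, for parts with at least 3 positions. Round spermatids were set against the lines by a gap of at least 25 percentage points outside the range of the lines, without a test. DKO and WT lines were compared with edgeR 4.0.16 in R 4.3.3 (quasi-likelihood test, common dispersion, two-sided, Benjamini-Hochberg over all genes, threshold 0.05), with limma 3.58.1 as an alternative (offset 2). Scripts ran in Python 3.11.15 and were checked on simulated data. Regions without variation were not tested.

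The members and lists were chosen with earlier results of these data known. Named genes were the classic types I to IV where measured, the called promoters and those of largest difference, the bodies of largest and smallest difference in each family, and the bodies of largest difference between non-overlapping DKO and WT lines. Other genes are named to complete the family. Alternatives covered read and position minimums, window size, scaling, the gap, the lines used, the test and a block for shared line names. Bodies from 3 kb and the first listed start were added after the data had been seen.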

Additional observations from a re-analysis of the deposited data

Results flagged for a closer look

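In 8 of the 41 measured collagen parts 1 line stood apart from the other 4 by Dixon's criterion for an outlying value, which chance meets in about 1 in 20 groups of normally spread values. These were 4 of 13 promoters (30.8%) and 4 of 28 bodies (14.3%), against 27.9% of all promoters and 19.1% of all bodies, so the collagens were near the shares of all genes. WT 1 was at 39.4% in the Col8a1 body, where the other lines were at 17.5% to 20.1%, and at 18.8% in the Col25a1 body, where they were at 0% to 3.51%. WT 2 was at 0.0181% in the Col15a1 body, where the others were at 10.5% to 14.4%, and at 0.334% in the Col27a1 promoter, where they were at 0% to 0.0831%. DKO 3 was at 5.88% in the Col12a1 body, where the others were at 0.0122% to 0.688%. DKO 1 was at 9.45% in the Col26a1 promoter, where the others were at 0% to 2.02%. DKO 2 was at 5.26% in the Col16a1 promoter and 0.117% in the Col9a3 promoter, where the others were at 0% to 1.41% and 0% to 0.0312%. Leaving out each line in turn changed neither the number of bodies called higher in round spermatids (14) nor that of promoters (1).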

How the results depend on the processing

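The round spermatids are 1 library, so their differences have no replicate check, and RRBS saw 31 of the 38 genes at few CpG sites. The 14 bodies called higher numbered within 1.5 times of that under every alternative run, while the size of the median difference moved with the sites included. Against 23.6 points for all collagen bodies it was 18.9 with at least 20 reads and also with at least 5 positions, 10.9 with a promoter of 0.5 kb before to 0.25 kb after the start, 43.3 as a mean of position levels, 31.5 with the first listed start and 71.9 from 3 kb after the start. For fibrillar bodies (46.4) it was 28.3 with at least 5 positions, 60.3 as a mean of position levels, 66.7 with the first listed start and 78.6 from 3 kb. For basement membrane bodies (84.2) it was 63.3 with the smaller promoter, 80.1 as a mean of position levels and 72.0 with Col7a1, Col15a1 and Col18a1 added. For other bodies (9.74) it was 29.1 as a mean of position levels and 22.3 from 3 kb. Bodies called lower numbered 2 with a gap of 10 points (Col8a1 and Col9a1) and 1 against the WT lines only (Col8a1), instead of 0. Promoters called higher numbered 0 instead of 1 with at least 5 positions, with the smaller promoter, with a gap of 50 points and with the first listed start, where Col25a1 changed sign to -0.075, and the promoter median was -0.0773 with the smaller promoter.

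Leaving out each line in turn gave medians of 22.1 to 25.1 for all bodies, 83.4 to 85.4 for basement membrane, 44.7 to 48.7 for fibrillar and 8.89 to 11.6 for other bodies, and -0.04 to -0.014 for promoters. It gave 14 bodies and 1 promoter higher, 0 lower and 0 called between DKO and WT each time. Without WT 1 or WT 2 a single WT line remains in that test and is assumed to vary like the DKO lines. Between DKO and WT, 1 body (Col22a1) was called by the likelihood ratio test, which called 22 of 6335 bodies over all genes, and 0 by the quasi-likelihood test. With a replicate block for the line names OG3 and AGH-2, 0 collagen promoters and 0 bodies were called, while over all genes 15 promoters and 0 bodies were called, against 0 and 0 without it. Lines with the same name deviated together with a correlation of 0.0006 over promoters and 0.149 over bodies, from 2 pairs, so the block is not used as the result.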
